A study of Mus musculus with 12 samples.

Results

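The genes described here encode the proteins of the cytosolic ribosome, measured in 3 regions of the mouse hippocampus and 4 histological conditions. They were chosen by symbol alone, as the rows of the count table named Rpl or Rps with a number and at most an a, x or l ending, together with Rplp0, Rplp1, Rplp2 and Rpsa. This left out processed pseudogenes with a -ps symbol, the Rps6k kinases and the mitochondrial ribosomal proteins. The rule found 88 of the 32546 genes in the table. Of these, 83 were annotated as protein-coding, 51 of the large and 32 of the small subunit, and 5 were pseudogenes with a plain symbol (Rps3a3, Rps3a2, Rps4l, Rpl6l and Rpl32l).

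Photo-isolation chemistry (PIC) primes reverse transcription in the section with a caged primer, and irradiation of a chosen area frees the cDNA made there for amplification, so that only the irradiated area is sequenced. CA1, CA3 and the dentate gyrus (DG) of male ICR mice, 8 weeks old, were irradiated in 4 replicates each. The conditions were frozen sections of unfixed tissue, made permeable for 5 min in 0.1 N HCl (FF HCl), the same kind of section kept for 1 h at 70 °C in TE buffer instead (FF TE), frozen sections of tissue fixed in 4% PFA with TE (PFA frozen) and paraffin sections of tissue fixed in 4% PFA with TE (PFA paraffin). All mice were wild type and untreated as far as the labels say, and according to the study's methods every section, unfixed tissue included, had a short PFA step after cutting. The description of the series writes CA2 where the sample titles and the paper write CA3, and CA3 is used here. Each library pooled 4 barcoded replicates of the same region and condition. Within a condition, region and library therefore cannot be told apart, and p-values within a condition measure the spread between barcoded replicates of 1 library. Each irradiated area holds many cells of several types, so fewer cells of a type and less RNA per cell cannot be told apart.

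The cytosolic ribosome has a small subunit, which reads the mRNA, and a large subunit, which joins amino acids and holds the exit tunnel. Most of its proteins are needed in equal numbers, and their mRNAs are short, abundant and found in every cell. Many of these mRNAs begin with a terminal oligopyrimidine tract (TOP), a C at the cap followed by an unbroken run of pyrimidines, through which mTOR signalling sets how much of them is translated. Their short spliced mRNAs have also been copied back into the genome many times, so that mammalian genomes hold large numbers of ribosomal protein pseudogenes that resemble the parent transcript.

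The start of the transcript is shown for 8 members because it carries the sequence feature that the family shares, and because these 8 recur in the results. Each line has 10 bases before the start that RefSeq annotates in GRCm38.p6 and the bases that follow it, 5′ to 3′ on the gene's strand, and capitals mark a TOP that begins at the annotated start, counted as a C followed by 4 or more pyrimidines.
Rpl15 (chr14:18270967-18270996, minus strand): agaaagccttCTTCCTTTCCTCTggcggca
Rps6 (chr4:86857348-86857377, minus strand): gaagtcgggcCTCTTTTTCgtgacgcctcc
Rps27 (chr3:90213629-90213658, minus strand): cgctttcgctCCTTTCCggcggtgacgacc
Rplp2 (chr7:141447641-141447670, plus strand): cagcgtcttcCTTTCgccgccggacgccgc
Rps21 (chr2:180257369-180257398, plus strand): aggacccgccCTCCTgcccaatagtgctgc
Rpl4 (chr9:64173377-64173406, plus strand): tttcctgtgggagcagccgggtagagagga
Rpl37 (chr15:5116603-5116632, plus strand): cctgggcggaagcttatccacaggaagtgg
Rpl39 (chrX:37085203-37085232, minus strand): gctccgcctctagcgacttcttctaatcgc

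The first 5 have a TOP at the annotated start and the last 3 do not. A start sequence was found for 63 of the protein-coding members, and 12 of them (19.0%) had a TOP there, against 660 of 26961 other genes (2.45%). Besides the 5 shown, these were Rpl14, Rpl28, Rpl35, Rpl38, Rps10, Rps15a and Rps18. A C at the annotated start was present in 21 members (33.3%) and in 16.1% of the other genes, and a run of 8 or more pyrimidines within 10 bases of the start was present in 27 (42.9%) and in 13.4%. A single annotated start was used for each gene, and a tract that begins a few bases away is missed, so the counts describe the annotation and no match says only that these letters are not at that position. The median principal transcript of the 83 protein-coding members had 886 bases, 5 exons, a coding sequence of 453 bases and a 3′ UTR of 90 bases. The 14210 other protein-coding genes that were tested had medians of 3148 bases, 9 exons, 1404 coding bases and a 3′ UTR of 1083.5 bases. The median GC content of the members was 51.5%.

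Levels within the family spanned several orders of magnitude. They are given as UMIs of a gene per 1000000 UMIs of the replicate (CPM), and since each UMI tags the 3′ end of 1 molecule whatever its length, they were not divided by length. Rpl4, a large-subunit protein that lines the exit tunnel, had the highest mean over the 48 replicates with 1065 CPM and held 10.1% of all UMIs of the family. Rps21 followed with 624, Rpl37 with 603, Rpl13 with 462 and Rps20 with 451 CPM. The order depends on the weight of the conditions: by UMIs summed over all replicates, which gives the deeper fresh-frozen replicates more weight, Rps20 (7296) came before Rps21 (7194) and Rpl37 (7072), and Rps29 (5057) before Rpl13 (4688). The 15 genes with the highest means held 50.4% of the family's UMIs. At the other end, Rpl29, a core protein of the large subunit, had 4 UMIs in all 48 replicates, and Rpl22l1, Rpl3l, Rpl39l and the pseudogene Rpl6l had 5, 3, 1 and 3. Of the 88, 83 had at least 10 UMIs in total and entered the comparison of libraries, a minimum that was the same for every gene.

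The paralog pairs were unequal. Rpl3 had 185 CPM on average and its paralog Rpl3l, known from striated muscle, 0.108 CPM. Rpl39 had 154 CPM and Rpl39l, known from male germ cells, 0.0314 CPM, while Rpl10l was not among the rows of the table. Rpl22 had 170 CPM against 0.595 for Rpl22l1, and Rpl7 had 211 against 14.4 for Rpl7l1. Rps4x, the X-linked gene, had 24.3 CPM and the pseudogene Rps4l 4.86. Both members were well measured in the other pairs, with 102 CPM for Rpl36a and 99.3 for Rpl36al, and 60.2 for Rps27 and 31.1 for Rps27l. The stalk proteins, which bind the elongation factors, had 49.9 (Rplp0), 159 (Rplp1) and 96.7 CPM (Rplp2), Rpsa on the head of the small subunit had 23.9 CPM, and Rps27a, which encodes ubiquitin fused to a ribosomal protein, had 71.0 CPM.

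Shared sequence can limit how far these levels can be compared between genes, and its effect on them was not tested. Each principal transcript was divided into all windows of 50 bases and each window was looked for in the 141767 annotated transcripts of other genes. Rpl3l and Rpl39l shared no window, and 41 protein-coding members had under 50% of their windows to themselves. Rps27 had 1.35% of its windows to itself, Rpl5 6.16%, Rpl3 14.4%, Rpl10 14.6% and Rps6 15.4%, whereas Rpl4 had 83.5% and Rps21 73.6%. Reads that align to more than 1 place were not assigned to a gene, so a member with many shared windows can be undercounted, and pseudogenes that are not annotated as transcripts were not searched. Members with under 50% had a median of 68.4 CPM and the other 42 a median of 98.0 CPM. Across the 83 protein-coding members Spearman's rho between mean CPM and the share of unshared windows was 0.17, a description over genes that share libraries. Rps6, which is phosphorylated downstream of mTOR, had 63 UMIs in all 48 replicates.

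**Figure D1:**
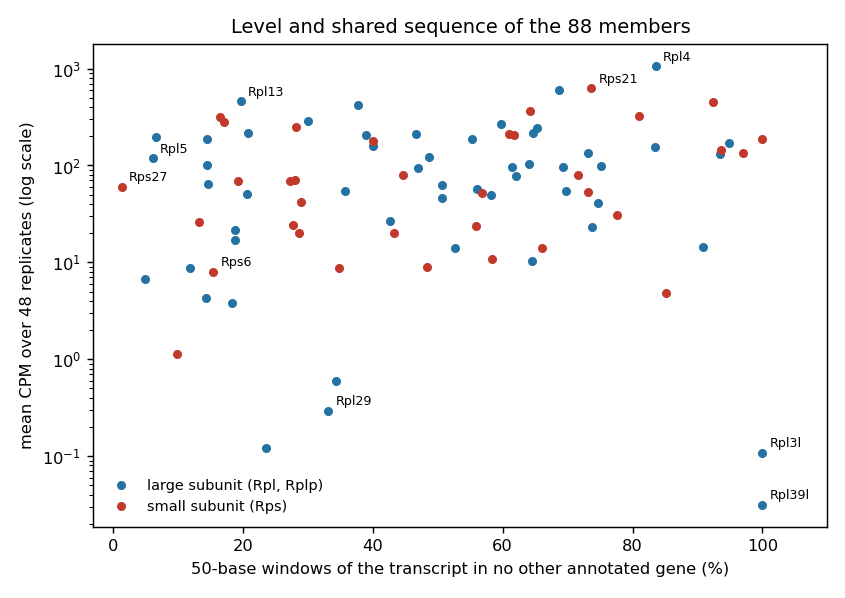
Mean level in CPM over 48 replicates (log scale) against the percentage of 50-base windows of the principal transcript that were found in no other annotated gene, 1 point per member. Rpl4 has the highest level at 1065 CPM, Rps27 sits at the left end with 1.35%, and Rpl3l and Rpl39l at 100%.

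Total UMIs per replicate ranged from 35932 to 1111804, with means over the 12 replicates of a condition of 647434 (FF HCl), 654145 (FF TE), 136212 (PFA frozen) and 88690 (PFA paraffin). The largest count of any member in a replicate was 870, far below the 4096 different UMIs of 6 bases. Shares of UMIs below are not corrected for UMI collisions, which also affect the total. With that correction over all genes, the family's share in CA1 replicate 1 of FF HCl fell from 0.782% to 0.716%. In DG replicate 1 of FF HCl it fell from 0.560% to 0.549%. In a replicate between 59 and 84 of the 88 members had a UMI. The summed CA1 markers were higher in CA1 than in the other regions of every condition (means of 475 to 1126 CPM against 69.6 to 256), and so were the CA3 markers in CA3 (771 to 1167 against 115 to 531) and the DG markers in DG (890 to 1761 against 161 to 329). Oligodendrocyte markers followed region in the same order in all 4 conditions, with means of 13843, 9965 and 4397 CPM in CA1, CA3 and DG of FF HCl, 8647, 7864 and 3301 in FF TE, 12229, 5562 and 2637 in PFA frozen and 19265, 14675 and 11883 in PFA paraffin.

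Together the 88 members took between 0.515% and 2.06% of the UMIs of a replicate. The mean over 12 replicates was 0.713% ± 0.139 (SD) in FF HCl, 0.899% ± 0.148 in FF TE, 1.64% ± 0.25 in PFA frozen and 1.35% ± 0.181 in PFA paraffin. The lowest and highest replicates were 0.515% and 0.902% in FF HCl, 0.705% and 1.14% in FF TE, 1.25% and 2.06% in PFA frozen and 1.01% and 1.55% in PFA paraffin. The ranges of FF HCl and PFA frozen did not overlap, and neither did those of FF TE and PFA frozen. The -ps pseudogene symbols, 222 genes outside the family, took 0.146% in FF HCl, 0.0999% in FF TE, 0.712% in PFA frozen and 0.923% in PFA paraffin. Relative to the family they were thus more abundant in both fixed conditions, and in PFA paraffin they reached 0.841% to 1.02% of the UMIs beside 1.01% to 1.55% for the family.

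The order of the regions differed from condition to condition. In FF HCl the family took 0.841% ± 0.064 in CA1, 0.736% ± 0.114 in CA3 and 0.564% ± 0.035 in DG (SD, n = 4 each), with every CA1 and CA3 replicate above every DG replicate. In FF TE the means were 1.00% ± 0.149, 0.762% ± 0.058 and 0.935% ± 0.121, and in PFA frozen 1.55% ± 0.112, 1.45% ± 0.157 and 1.92% ± 0.163. In PFA paraffin they were 1.38% ± 0.124, 1.21% ± 0.228 and 1.47% ± 0.062. DG was thus the region with the lowest mean share in FF HCl and the highest mean share in both fixed conditions. In PFA frozen the lowest DG replicate (1.77%) lay above the highest CA1 (1.68%) and CA3 (1.58%) replicates. In PFA paraffin the regions overlapped, with replicates of 1.38% to 1.51% in DG, 1.28% to 1.55% in CA1 and 1.01% to 1.43% in CA3.

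**Figure D2:**
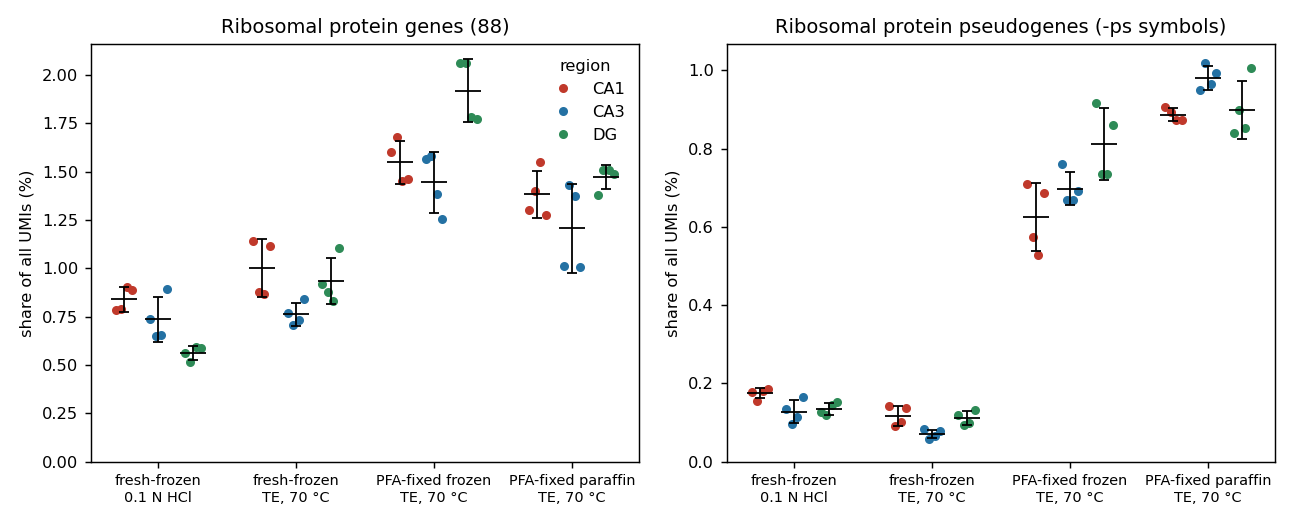
Share of all UMIs of a replicate (%) taken by the 88 ribosomal protein genes and by the 222 -ps pseudogene symbols, by condition and region, with 1 point per replicate, a long bar at the mean of 4 and error bars of 1 SD. The family ranges from 0.515% to 0.902% in FF HCl and from 1.25% to 2.06% in PFA frozen, and the pseudogene symbols have means of 0.146% and 0.0999% in FF HCl and FF TE and of 0.712% and 0.923% in PFA frozen and PFA paraffin.

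Conditions were compared for each gene across all 3 regions, with region as a term, on 24 replicates. Calls were made at an adjusted p below 0.05 in edgeR's quasi-likelihood test, with Benjamini-Hochberg adjustment over all genes tested, and fold changes are log2 with their standard error (SE). The 24 replicates are barcodes of 6 libraries, so these p-values also measure the spread between barcoded replicates. With the 12 summed libraries as the unit, 28 members were lower and 1 higher in FF HCl than in FF TE. In PFA frozen 51 were higher and 4 lower than in FF TE, and in PFA paraffin 37 were lower than in PFA frozen. The shares of all genes called in these summed fits are not given here, so these counts have no background beside them. Of the 23 calls of named members, 4 were lost with the summed libraries (Rpl28, Rps3 and Rpl11 in FF HCl over FF TE and Rpl41 in PFA frozen over FF TE). The 3 comparisons share groups with each other and are given side by side. Counts are relative to a median over all genes that was not 0, since it was 0.10, −0.39 and 0.05 in the comparisons of HCl with TE, fixed with unfixed and paraffin with frozen.

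Permeabilization with HCl rather than TE went with lower counts for many members. Of the 82 tested, 33 were lower and 5 higher in FF HCl, where 14.3% and 16.2% of all 18164 genes tested were lower and higher, and the median of the family was −0.28 against 0.10 for all genes. Rps27a, the ubiquitin fusion, had 43.8, 29.5, 56.4 and 31.4 CPM in CA1, 27.9, 36.4, 50.6 and 56.1 in CA3 and 2.84, 15.5, 25.4 and 0 in DG of FF HCl. In FF TE it had 177, 146, 162 and 181 CPM in CA1, 88.4, 130, 176 and 188 in CA3 and 128, 145, 141 and 119 in DG. The groups did not overlap in any region, and the log2 fold change was −2.29 ± 0.17 (adjusted p = 1.55e-15).

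Rpl5, which carries the 5S rRNA into the large subunit, behaved alike. It had 84.8, 49.2, 96.6 and 62.9 CPM in CA1, 65.4, 90.0, 80.2 and 61.5 in CA3 and 42.6, 63.6, 45.7 and 33.5 in DG of FF HCl, and 303, 241, 203 and 259, 206, 268, 276 and 289, and 307, 300, 238 and 391 in FF TE. Every FF HCl replicate was below every FF TE replicate (−2.16 ± 0.13, adjusted p = 4.91e-19). Rplp2 of the stalk fell by 1.48, Rpl23 by 1.40 and Rpl15 by 1.24 on the log2 scale, while its stalk partner Rplp0 was higher by 0.44 ± 0.16 (adjusted p = 0.0346). Rpl28 (0.67 ± 0.25), Rps3 at the mRNA entry (0.45 ± 0.14), Rpl11, which also carries the 5S rRNA (0.33 ± 0.11), and Rpl10 (0.91 ± 0.19) were the other members that were higher. The mean of Rpl10 was higher in FF HCl in CA1 and CA3 (64.9 and 40.7 CPM) and not in DG (23.0 CPM).

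The lower counts were most general in DG. The difference of mean log2 CPM between FF HCl and FF TE was negative for 73 of the 82 members in DG (median −0.74), for 51 in CA3 (median −0.10) and for 49 in CA1 (median −0.19). With each replicate thinned to the smallest total, 8 members were lower and 1 higher of 73 tested. The shares of all genes called in thinned fits are not given here or below, so those counts have no background beside them. Of the pseudogene symbols 21 were higher and 0 lower of 83 tested in edgeR, with a median of 0.40. The part of depth and of shared sequence in these values was not tested.

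Fixation before freezing went with higher shares for most of the family. Of 82 members tested, 53 were higher and 7 lower in PFA frozen than in FF TE, where 15.8% and 32.9% of all 15878 genes tested were higher and lower, and the median of the family was 0.75 against −0.39. Rpl39, a short protein of the exit tunnel, rose most among the members with at least 10 UMIs per replicate on average and the same sign in all regions. It had 33.3, 30.1, 23.0 and 16.2 CPM in CA1, 23.6, 25.2, 28.9 and 25.4 in CA3 and 20.3, 25.6, 23.5 and 50.9 in DG of FF TE. In PFA frozen it had 290, 210, 239 and 184 CPM in CA1, 244, 268, 337 and 341 in CA3 and 350, 277, 268 and 385 in DG. Every PFA frozen replicate was above every FF TE replicate (3.29 ± 0.15, adjusted p = 6.91e-35).

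Rpl36al, the autosomal paralog of Rpl36a, had between 9.77 and 47.1 CPM in FF TE and between 81.5 and 240 in PFA frozen (2.90 ± 0.19, adjusted p = 5.4e-25). Rpl10, which joins the large subunit late in its assembly, had 26.4, 13.6, 18.9 and 21.6 CPM in CA1, 13.3, 15.3, 17.2 and 23.4 in CA3 and 16.3, 29.0, 23.5 and 34.0 in DG of FF TE, and 72.4, 82.9, 68.2 and 73.8, 275, 191, 157 and 133, and 164, 133, 136 and 110 in PFA frozen (2.62 ± 0.19, adjusted p = 1.44e-21). Its CA3 and DG replicates rose further than those of CA1. Rpl31 at the exit tunnel and Rpl8 near the peptidyl transferase centre were higher by 2.24 ± 0.13 and 2.18 ± 0.14. Rpl4, the most abundant member, was higher by 0.29 ± 0.10 (adjusted p = 0.0138).

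The members that were lower included Rpl5 (−1.38 ± 0.14), Rps27a (−1.15 ± 0.17), Rpl18 (−0.89 ± 0.28), Rplp2 (−0.60 ± 0.16) and Rpl41, the shortest ribosomal protein (−0.46 ± 0.18, adjusted p = 0.0308). Rpl5, Rps27a and Rplp2 were thus lower both in FF HCl and in PFA frozen than in FF TE, the group that these comparisons share. The family's median difference was positive in each region, with 65 of 82 members positive in DG (median 0.83), 55 in CA3 (0.43) and 46 in CA1 (0.21). Total UMIs (means of 136212 and 654145), the share of mitochondrial transcripts (7.66% and 3.69%) and the -ps pseudogene symbols (63 of 73 higher, 2 lower, median 2.95) moved with this comparison, and their part in it was not tested. With each replicate thinned to the smallest total, 45 members were higher and 4 lower of 74 tested.

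In paraffin sections many members were lower than in frozen sections of fixed tissue. Of the 82 tested, 38 were lower and 0 higher by edgeR, where 14.4% and 13.7% of all 12189 genes tested were lower and higher. At an unadjusted p under 0.05, 1 member was higher and 43 lower, and DESeq2 called 3 higher and 23 lower. The median was −0.56 against 0.05 for all genes. Rpl3, near the peptidyl transferase centre, had 232, 453, 332 and 277 CPM in CA1, 336, 325, 258 and 265 in CA3 and 641, 583, 557 and 321 in DG of PFA frozen. In PFA paraffin it had 192, 216, 155 and 195 CPM in CA1, 149, 252, 188 and 50.1 in CA3 and 115, 178, 211 and 156 in DG. Within each region every PFA paraffin replicate was below every PFA frozen replicate, by a narrow margin in CA3 (−1.29 ± 0.17, adjusted p = 1.75e-11).

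Rpl10 (−1.32 ± 0.25), Rpl32 (−1.16 ± 0.22) and Rpl27a (−1.15 ± 0.22) were lower too. Rpl39, Rpl36al and Rpl13, which differed strongly between fixed and unfixed frozen tissue, had values of −0.22 ± 0.16, −0.05 ± 0.19 and −0.02 ± 0.14 here that did not pass the test. The difference was negative for 71 of 82 members in DG (median −0.71), 62 in CA3 (−0.55) and 66 in CA1 (−0.50). With thinning, 15 were lower and 3 higher.

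**Figure D3:**
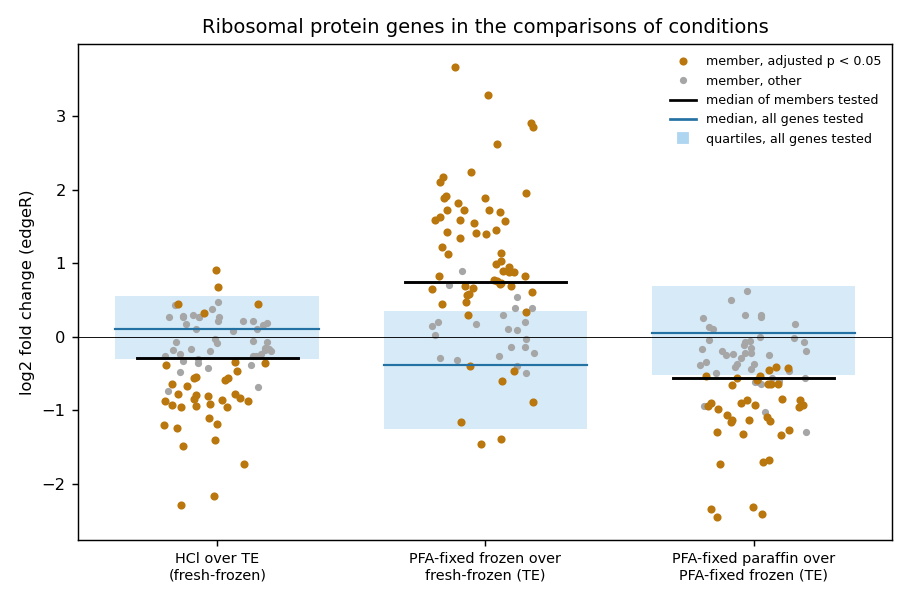
Log2 fold changes (edgeR) of the members tested in the 3 comparisons of conditions, 1 point per member, coloured where the adjusted p is under 0.05. Black lines mark the members' medians (−0.28, 0.75 and −0.56), blue lines and boxes the median and quartiles of all genes tested, and most points of the middle comparison lie above the box.

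Regions were first compared over the 12 libraries, each the sum of its 4 replicates, with condition as a term, so that each region had 4 libraries. Of 83 members tested, 16 were higher and 0 lower in CA1 than in DG by edgeR, where 4.64% and 5.52% of all 18884 genes tested were higher and lower. At an unadjusted p under 0.05, 29 were higher and 1 lower, and DESeq2 called 2 higher and 0 lower, while thinning left 0 calls. The median was 0.33 against 0.00 for all genes, and small-subunit members (10 of 35 called, median 0.53) were called more often than large-subunit members (6 of 48, median 0.15), a difference in counts that was not tested. The count depended on both fresh-frozen conditions. All-gene shares for fits that left out libraries, conditions or replicates are not given here or below. Without the 3 libraries of FF HCl 1 member was called, and without those of FF TE 4. Without PFA frozen and PFA paraffin 26 and 17 were called, and 1 of the 17 was lower. Leaving out the FF HCl CA1 or the FF HCl DG library left 2 calls, and leaving out the FF TE CA3 or FF TE DG library left 8 and 9.

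Of the called members 3 had the same sign in all 4 conditions. Rps6 had the largest difference (3.63 ± 0.69, adjusted p = 6.01e-06), and its counts were low. It had 130, 66.3, 25.6 and 92.2 CPM in CA1 of PFA frozen, together 29 of its 63 UMIs, while CA3 and DG of PFA frozen had 0 and 1 UMI and CA1 of FF HCl and FF TE had 9 and 6. Without that library the value was 1.98 and no longer passed the test. Rpl36 (1.02 ± 0.31, adjusted p = 0.0144) and Rps3a1 (0.83 ± 0.24, adjusted p = 0.0082) were higher too, at 16.9 and 41.6 CPM on average, and neither passed without FF HCl (0.64 and 0.56).

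Between CA3 and DG no member was called by edgeR, where 3.88% of all genes tested were higher and 4.30% lower, 8 members were higher and 4 lower at an unadjusted p under 0.05, and DESeq2 called 0. The median was −0.01 for the family and for all genes. Between CA1 and CA3, 5 members were higher in CA1 and 0 lower by edgeR, where 2.05% and 2.61% of all genes were higher and lower, with 19 higher and 0 lower unadjusted and 0 by DESeq2. They were Rps6 (1.85 ± 0.56), Rpl35a (0.58 ± 0.18), Rpl37 (0.58 ± 0.17), Rps3 (0.56 ± 0.18) and Rps21 (0.52 ± 0.16). The count was 1 to 3 without the FF HCl CA1, FF HCl CA3, FF TE CA1, FF TE CA3, FF TE DG or PFA frozen CA3 library.

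Within FF HCl the family differed strongly between regions. Of 78 members tested, 51 were higher and 1 lower in CA1 than in DG, where 8.61% and 8.35% of all 14893 genes tested were higher and lower, and the median was 0.91 against 0.03 for all genes. Among the small-subunit members 23 of 32 were higher and none lower by edgeR (median 1.37), and among the large-subunit members 28 of 46 were higher and 1 lower (median 0.82). Rpl30 of the large subunit had 186, 184, 191 and 173 CPM in CA1, 116, 99.6, 86.4 and 115 in CA3 and 65.3, 77.5, 81.2 and 67.0 in DG. The 3 regions did not overlap, with 1.31 ± 0.20 for CA1 over DG (adjusted p = 2.69e-06). Rpl39 had 79.3, 68.9, 63.3 and 55.0 CPM in CA1, 32.2, 19.3, 19.8 and 42.4 in CA3 and 22.7, 6.20, 16.5 and 12.6 in DG, again with CA1 and DG apart (2.28 ± 0.33, adjusted p = 1.19e-06).

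Rps4x (2.97 ± 0.43), Rps27 (1.94 ± 0.32), Rpl41 (1.79 ± 0.27), Rplp1 (1.72 ± 0.25) and Rpl10 (1.56 ± 0.30) were among the others that were higher in CA1. The exception was Rpl4. It had 726, 613, 675 and 927 CPM in CA1, 933, 698, 768 and 1071 in CA3 and 1223, 917, 1000 and 1323 in DG of FF HCl. The CA1 and DG replicates overlapped by a narrow margin, and CA1 was lower (−0.61 ± 0.17, adjusted p = 0.0109). Rpl13 (0.50 ± 0.19) and Rps20 (−0.17 ± 0.19) did not pass the test. Across the 76 protein-coding members tested, rho between this fold change and the mean CPM was −0.52, and with the share of unshared windows −0.39, so that abundant members and those with their own sequence had smaller values. These are descriptions over genes of the same replicates. With every replicate thinned to 35932 UMIs, the smallest total of any replicate, 1 member was higher and 1 lower of 53 tested. The smallest total within FF HCl was 127253 UMIs, and the share of all genes still called after thinning is not given.

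Between CA3 and DG in FF HCl, 20 of 80 members were higher and 0 lower by edgeR, where 4.46% and 4.53% of all 15161 genes tested were higher and lower. At an unadjusted p under 0.05 there were 50 higher and 1 lower, and 15 and 0 by DESeq2, and the median was 0.58 against 0.02 for all genes. Replicates with the same number deviated together here, and with the replicate number as a block 42 members were called, 41 of them higher. All-gene shares for the fits with a block are not given here or below. With every replicate thinned to the smallest total, 0 were called. The count was 11 without CA3 replicate 4 and 13 without DG replicate 2. Rps27a (1.56 ± 0.40), Rps27l (1.55 ± 0.42), Rpl41 (1.30 ± 0.25) and Rplp1 (1.27 ± 0.24) were among them.

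With TE in place of HCl the differences between the regions of fresh-frozen sections were smaller. Of 81 members tested, 4 were higher and 0 lower in CA1 than in DG by edgeR, where 5.15% and 4.99% of all 14011 genes were higher and lower, a share of members near that of all genes. Unadjusted, 16 were higher and 1 lower, and DESeq2 called 4 and 0. The 4 were Rps27 (1.07 ± 0.27), Rps14 (0.96), Rpl37 (0.82 ± 0.18) and Rps15 (0.57). Rpl37 had 504, 291, 328 and 478 CPM in CA1 and 230, 179, 215 and 312 in DG, overlapping by 1 replicate. The numbers paired the replicates here too, and with the block 15 members were higher and 1 lower, while without DG replicate 1 the count was 2.

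Between CA3 and DG in FF TE 0 of 82 members were higher and 2 lower by edgeR, where 4.35% and 3.56% of all 14386 genes were higher and lower. Unadjusted, 3 were higher and 7 lower, and DESeq2 called 0 and 2. They were Rpl4 (−0.73 ± 0.17, adjusted p = 0.0049), with 805, 576, 645 and 901 CPM in CA3 and 1382, 1119, 988 and 1579 in DG, and Rps20 (−0.56 ± 0.17, adjusted p = 0.0388). The Rpl4 replicates of the 2 regions did not overlap. With the block 1 member was higher and 7 were lower. The count was 1 without CA3 replicate 2 or 3 or DG replicate 1, 2 or 4, and 4 without DG replicate 3. Thinning left 0 calls in both comparisons of FF TE.

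In PFA frozen sections most members lay lower in CA1 and CA3 than in DG. Of 78 tested, 7 were lower and 1 higher in CA1, where 4.78% and 3.36% of all 9385 genes tested were lower and higher, and 9 were lower and 0 higher in CA3, where the shares were 4.98% and 4.29% of 9353. At an unadjusted p under 0.05, 21 were lower and 1 higher in CA1 and 22 lower and 1 higher in CA3. DESeq2 called 0 lower and 1 higher in CA1 and 7 lower and 0 higher in CA3. The medians were −0.30 and −0.33, against −0.11 and −0.09 for all genes. Rpl7 (−0.81 ± 0.21 in CA1, −0.89 ± 0.21 in CA3), Rpl3 (−0.69 ± 0.20, −0.83 ± 0.20) and Rpl36a (−0.77 ± 0.24, −0.80 ± 0.24) were lower in both regions, which share the DG replicates.

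The other members lower in CA1 of PFA frozen were Rpl32, Rpl17, Rps26 and Rpl9, and the member that was higher was Rps6 (5.07 ± 0.82). The other members lower in CA3 were Rpl30, Rps12, Rpl11, Rps13, Rps21 and Rpl37, with values from −0.78 to −0.56. The CA1 count was 4, 5 and 3 without CA1 replicate 1, 3 and 4, and 5 without DG replicate 1 or 3. Thinning left 0 calls in CA1 and 1 in CA3. Oligodendrocyte markers were higher in CA1 than in DG of PFA frozen (9256 to 19168 CPM against 2177 to 3207). They were also higher in CA1 of FF HCl (10454 to 20636 against 3694 to 5966), and all 8 markers were called in both. The family lay lower in CA1 than in DG of PFA frozen and higher in CA1 of FF HCl. The part of cell composition in these values was not tested, and each group is 1 library.

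In PFA paraffin 67 members were tested between CA1 and DG and 68 between CA3 and DG. In CA1 2 were lower (Rpl7, −1.27 ± 0.35, and Rpl17, −1.15 ± 0.33) and 0 higher by edgeR, where 2.42% and 0.870% of all 8969 genes were lower and higher, with 5 lower and 3 higher unadjusted and 0 by DESeq2. The count was 0 without CA1 replicate 1, 2 or 4 or DG replicate 2 and 1 without CA1 replicate 3 or DG replicate 3, and thinning left 0. In CA3 2 were lower and 1 higher, where 1.28% and 1.93% of 9380 genes were lower and higher. Rpl37 (−1.39 ± 0.26) and Rps21 (−0.95 ± 0.25) were lower. Rpl18 was higher (2.52 ± 0.57, adjusted p = 0.00282), with 99.3, 90.7, 83.7 and 100 CPM in CA3 and 20.3, 8.89, 22.4 and 0 in DG, 29 and 9 UMIs in all. The medians were −0.06 and −0.02, against −0.18 and −0.06 for all genes.

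**Figure D4:**
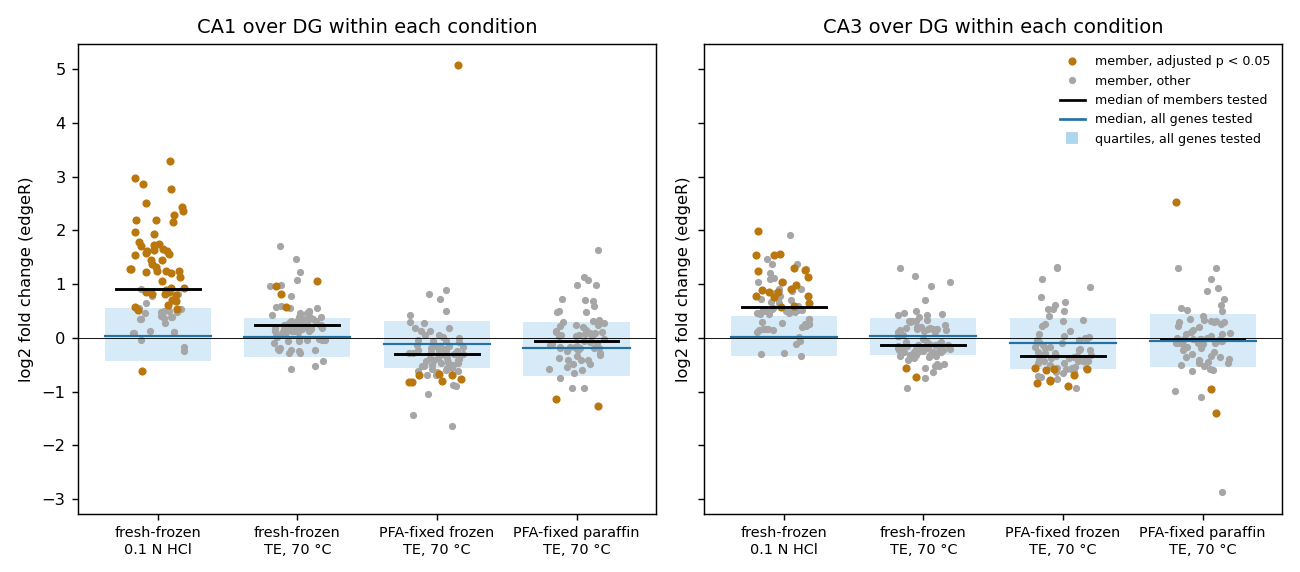
Log2 fold changes (edgeR) of CA1 over DG and CA3 over DG within each of the 4 conditions, 1 point per member tested, coloured where the adjusted p is under 0.05, with the medians of the members (black) and of all genes tested (blue, with quartiles). The members' median for CA1 over DG goes from 0.91 in FF HCl and 0.23 in FF TE to −0.30 in PFA frozen and −0.06 in PFA paraffin.

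Whether the difference between regions varies among the 4 conditions was tested with the interaction of region and condition over all 48 replicates. Each combination of region and condition is 1 library, so this interaction cannot be told apart from differences between libraries. Its p-values measure the spread between barcoded replicates, and it was not run on thinned counts. Of 83 members, 31 passed the test, where 2.69% of all 18884 genes did, and 47 passed with the replicate number as a block. Without the 12 replicates of FF HCl 5 members passed, without FF TE 34, without PFA frozen 19 and without PFA paraffin 34. The shares of all genes that passed with the block or without a condition are not given, so these counts have no background. In the 31 the difference of mean log2 CPM between CA1 and DG was positive for 31 in FF HCl (median 1.22), 24 in FF TE (0.14), 1 in PFA frozen (−0.56) and 13 in PFA paraffin (−0.13). Between CA3 and DG it was positive for 31, 8, 3 and 10, with medians of 0.76, −0.15, −0.59 and −0.18. These signs describe members chosen by the interaction test and support nothing further.

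Rpl37, a zinc-binding protein of the large subunit, had the smallest adjusted p in that test (1.26e-08). It had 320, 325, 359 and 448 CPM in CA1, 354, 238, 281 and 483 in CA3 and 241, 169, 254 and 343 in DG of FF HCl. In PFA frozen it had 913, 647, 648 and 775 CPM in CA1, 631, 586, 603 and 473 in CA3 and 991, 768, 837 and 862 in DG. In PFA paraffin it had 1494, 1440, 1681 and 1252 in CA1, 381, 393, 544 and 576 in CA3 and 1112, 898, 1237 and 1743 in DG. DG overlapped with both other regions in FF HCl, whereas in PFA paraffin every CA3 replicate was below every replicate of CA1 and DG.

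Rpl17 (adjusted p = 2.16e-06), Rpl39 (3.14e-06), Rpl30 (2.19e-05) and Rpl7 (4.68e-05), all of the large subunit, came next. Their CA1 over DG values were 1.23, 2.28, 1.31 and 0.55 in FF HCl and −0.80, −0.50, −0.46 and −0.81 in PFA frozen. All passed edgeR's test in FF HCl. In PFA frozen Rpl17 and Rpl7 passed, and Rpl39 (adjusted p = 0.194) and Rpl30 (0.139) did not. In PFA paraffin the values were −1.15, 0.03, −0.74 and −1.27, and again only Rpl17 and Rpl7 passed. Rps21 also passed (adjusted p = 0.000312). It had 365, 374, 335 and 338 CPM in CA1 and 207, 138, 178 and 239 in DG of FF HCl, with CA1 higher in all replicates, and 1057, 1144, 1015 and 978 in CA1 and 1394, 1162, 1072 and 1312 in DG of PFA frozen, where the ranges overlapped. Rpl4 (adjusted p = 0.594), Rpl13 (0.285), Rps20 (0.186), Rpl5 (0.328) and Rpl36al (0.468) did not pass.

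**Figure D5:**
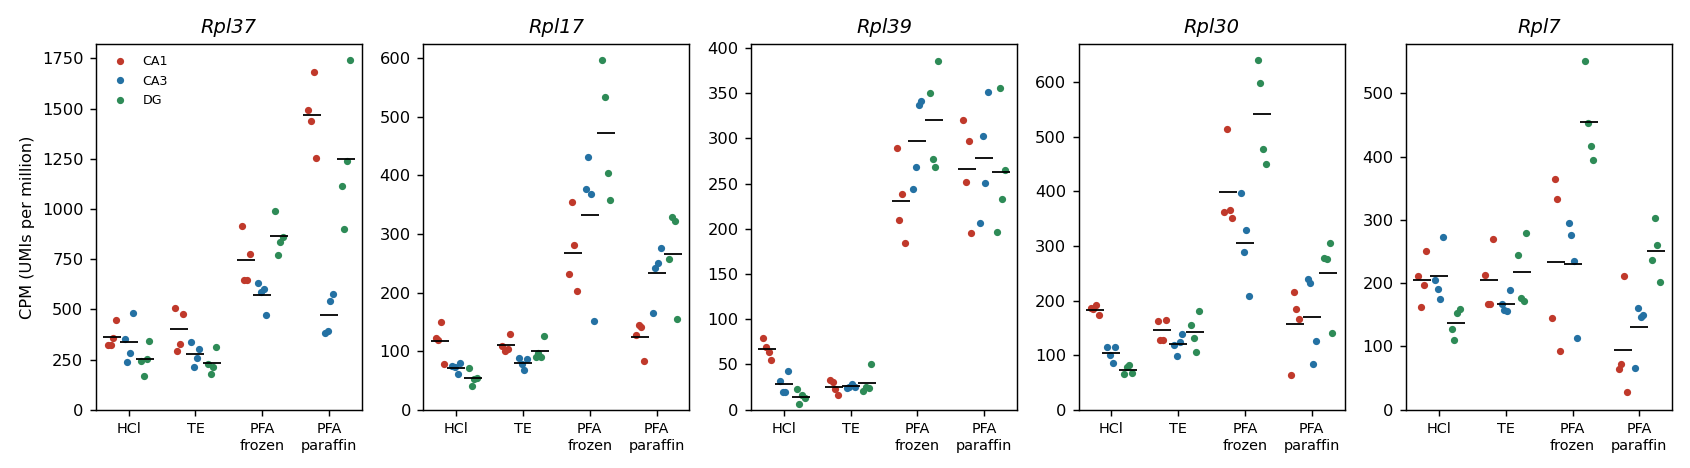
Level in CPM of the 5 members with the smallest adjusted p for the interaction of region and condition (Rpl37, Rpl17, Rpl39, Rpl30 and Rpl7), by condition and region, with 1 point per replicate and a bar at the mean of 4. Within FF HCl CA1 lies highest or level with CA3, and for Rpl37 in PFA paraffin the CA3 replicates (381 to 576 CPM) lie below CA1 (1252 to 1681) and DG (898 to 1743).

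Other genes of the translation pathway were counted in the same fits. In PFA frozen over FF TE, 15.8% and 32.9% of all genes tested were higher and lower. Of 75 mitochondrial ribosomal protein genes 45 were higher and 3 lower (median 0.80), close to the median of 0.75 of the cytosolic family. Of 31 initiation factors, 16 were higher and 5 lower (median 0.45), with Eif5a at 2.84. Of the elongation factors 2 were higher and 1 lower of 6 (Eef1a2 2.01, Eef2 −1.30), and of 30 ribosome biogenesis genes 8 were higher and 5 lower. Of 6 ribosome-associated or fusion genes outside the rule 5 were higher, with Btf3 at 2.96, and 1 was lower, Fau at −1.39.

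In FF HCl over FF TE, 16.2% and 14.3% of all genes tested were higher and lower. There 7 mitochondrial ribosomal proteins were higher and 8 lower of 75, and 6 initiation factors higher and 12 lower of 31. Of 6 elongation factors 1 was higher and 3 lower, and of 30 biogenesis genes 4 were higher and 6 lower. Differences between lists were not tested. In PFA paraffin over PFA frozen, 13.7% and 14.4% of all genes tested were higher and lower. Of 71 mitochondrial ribosomal proteins 25 were lower and 1 higher (median −0.73), and of 31 initiation factors 13 were lower and 2 higher. Of 30 biogenesis genes 8 were lower and 1 higher, and of 71 pseudogene symbols 14 were higher and 5 lower. For CA1 over DG in FF HCl, 8.61% and 8.35% of all genes tested were higher and lower. Of 73 mitochondrial ribosomal proteins 11 were higher and 1 lower, with a median of 0.20 beside 0.91 for the cytosolic family. Of 31 initiation factors 6 were higher and 1 lower, and 1 of 6 elongation factors was higher. Of 30 biogenesis genes 1 was higher and 2 lower. Among the ribosome-associated or fusion genes, Fau (2.53), Tpt1 (2.75) and Naca (1.06) were higher there. Btf3 (1.12), Rack1 (0.29) and Serbp1 (0.12) did not pass the test. Of 57 pseudogene symbols 7 were higher and 0 lower in the same comparison.

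Members with a TOP at the annotated start were set beside those without one, as a description. The 12 members had a median of 50.7 CPM (6.79 to 624) and the 51 others 77.7 CPM (0.0314 to 1065). The median log2 fold change of CA1 over DG in FF HCl was 0.93 for 11 members with a TOP and 0.90 for 47 without. It was −0.47 for 12 and −0.16 for 48 in FF HCl over FF TE, 0.81 and 0.80 in PFA frozen over FF TE, and −0.52 and −0.51 in PFA paraffin over PFA frozen. Of the sequences shown above, Rpl15 and Rplp2 have a TOP and fell by 1.24 and 1.48 in FF HCl. Rpl5, whose start is not shown and has no TOP at the annotated position, fell by 2.16.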

How the data were processed

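RNA of CA1, CA3 and DG was measured by PIC in 4 conditions with 4 barcoded replicates each, 48 in all. The authors prepared CEL-seq2 libraries with UMIs of 6 bases and barcodes of 6 bases, and per the paper's methods and the submitters' processing notes they used UMI-tools 1.0.0, Trim Galore!, HISAT2 2.1.0 on GRCm38, featureCounts 1.6.4 and DESeq2 1.20.0. The deposited values are whole UMI counts per gene and replicate, not normalized. Reads with several alignments were not counted, no strand setting is named, the annotation release is not given in the sources used here, and positions come from GENCODE M21. No symbol was found for 773 genes. Total UMIs ran from 35932 to 1111804 per replicate, so a count near 0 is least precise in fixed sections.

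Counts were tested as deposited with edgeR 4.0.16 (TMM, glmQLFit, Benjamini-Hochberg over all genes tested, R 4.3.3), keeping genes with at least 10 UMIs over the replicates or libraries of a fit. Alternatives were DESeq2 1.42.0, other scalings, no filter, a UMI collision correction, thinning to the smallest total, a replicate block and leaving out replicates, libraries or conditions. The scripts were tested on simulated data. The members, gene lists and tests were chosen with earlier results of these data known. Conditions were left out after seeing the data. Named members are the 5 highest, the paralog pairs, the stalk and head proteins with Rps27a, the 5 largest called in each direction with the same sign throughout (at least 10 UMIs on average between conditions), the 5 first of the interaction test and the extremes of unshared windows. Other members were named after their values were seen. Some members that the rule names are not reported here.

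The labels do not say what a replicate number marks, and nothing shows whether replicates came from separate animals beyond the paper calling them biological, so p-values measure the spread between these replicates. Same-numbered replicates deviated together in all 4 pairs, with correlations of 0.2284 to 0.4333 for CA3 and DG of FF HCl, 0.2193 to 0.314 for CA1 and DG of FF TE and 0.2131 to 0.3118 for CA3 and DG of FF TE, and across conditions 0.1709 to 0.3366 for DG and 0.2585 to 0.3689 for CA3 of FF HCl and FF TE. They did not in CA1 of FF HCl and FF TE (0.0289 to 0.1838).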

Additional observations from a re-analysis of the deposited data

Results flagged for a closer look

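Whether the difference between regions varied among conditions was tested for every member. Of 83, 31 passed the edgeR interaction test, as described above for Rpl37 and the others. Region by condition cannot be told apart from library there, since each combination was a single library.

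In 96 groups of 4 replicates, 5 held a replicate that stood apart by Dixon's criterion, and chance alone would flag about 1 in 20 groups. The summed share of the small-subunit members had its highest replicate in DG of FF TE at 0.445% of UMIs. The summed share of all members had its lowest replicate in DG of PFA paraffin at 1.38%. Rpl13 had its lowest replicate in CA1 of PFA paraffin at 612 CPM. Rps20 had its highest replicate in CA1 of FF HCl at 416 CPM and its lowest in CA1 of PFA paraffin at 306 CPM.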

How the results depend on the processing

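Numbers of called members are given here, and the cause of each change was not tested unless named. The shares of all genes called in these alternative fits are not given. A change over all genes and a change of the members therefore cannot be told apart. Thinning to the smallest total, which removes most UMIs of the deeper replicates, left 0 (CA1 over DG) and 1 (CA1 over CA3) in the 12 summed libraries, 2 and 0 in FF HCl (CA1 and CA3 over DG), 0 and 0 in FF TE, 0 and 1 in PFA frozen, 0 in CA1 over DG of PFA paraffin, 9 in FF HCl over FF TE and 18 in PFA paraffin over PFA frozen. DESeq2 called 2 (CA1 over DG) and 0 (CA1 over CA3) in the summed libraries, 1 in CA1 over DG of PFA frozen and 0 in that of PFA paraffin, where DESeq2's size factors in edgeR gave 1. Without a filter the counts were 10 and 2 in the summed libraries and 4 in CA1 over DG of PFA frozen. Library totals gave 1 for CA3 over DG in the summed libraries and 4 in FF TE, and the UMI collision correction gave 3 for CA1 over CA3. Without FF HCl, FF TE and PFA frozen the summed libraries gave 1, 4 and 26 (CA1 over DG) and 1, 1 and 3 (CA1 over CA3), and for CA3 over DG 2 without FF HCl and 3 without PFA frozen. The interaction gave 5 without FF HCl and 19 without PFA frozen.

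With the replicate block, 42 were called for CA3 over DG in FF HCl, 16 and 8 for CA1 and CA3 over DG in FF TE, 18 for CA1 over DG in PFA frozen, where the numbers did not pair all replicates, and 47 in the interaction. It gave 42, 36 of them lower, in FF HCl over FF TE and moved no other count by over 1.5 times. Leaving out 1 library gave 2 to 24 (CA1 over DG), 0 to 4 (CA3 over DG; 4 without FF HCl CA1, 3 without FF HCl DG, PFA frozen CA3 or PFA frozen DG, 1 without FF HCl CA3 or FF TE DG) and 1 to 6 (CA1 over CA3). Leaving out 1 replicate gave 38 to 49 and 11 to 25 in FF HCl (CA1 and CA3 over DG), 2 to 5 and 1 to 4 in FF TE, 3 to 7 and 7 to 11 in PFA frozen, 0 to 2 and 2 to 4 in PFA paraffin, 35 to 39, 55 to 60 and 31 to 41 in the comparisons of HCl with TE, fixed with unfixed and paraffin with frozen, and 23 to 28 in the interaction. Over all alternatives, 266 values of counts and shares stayed within 1.5 times or the replicate spread and 73 moved further, and for named members 836 values kept their call, 61 lost it and none reversed.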
